A study of Homo sapiens with 6 samples.

Results

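Oxidative phosphorylation is carried out in the inner mitochondrial membrane by 5 multi-subunit complexes. Complexes I and II pass electrons from NADH and succinate to ubiquinone, complex III hands them to cytochrome c, complex IV passes them to oxygen, and complex V (ATP synthase) uses the resulting proton gradient to make ATP. Most subunits are encoded in the nucleus and imported, whereas a smaller set, including core membrane subunits of complex I and the catalytic subunits of complex IV, is encoded by mitochondrial DNA. The genes described here are the nuclear-encoded subunits and cytochrome c, taken by gene symbol (names that begin with NDUFA, NDUFB, NDUFC, NDUFS or NDUFV and a digit, SDHA to SDHD, UQCR, COX4 to COX8 and ATP5, with NDUFAB1, CYC1 and CYCS). The rule found 95 of 29982 gene symbols. It used names only and no measured value.

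The cells were OVCAR5, an established line of ovarian cancer. The 6 libraries were 2 of cells given the vehicle DMSO, 2 of cells given 10 μM SpiD7 and collected after 2 h, and 1 of each of the later collections at 6 h and 12 h. SpiD7 joins 2 copies of a spirocyclic α-methylene-γ-butyrolactone through a linker, and the study used it to ask whether the unfolded protein response is activated. The sample labels give no time for the vehicle and do not say whether replicates were separate cultures, so that a p-value measures only the spread between these libraries. The epithelial genes EPCAM, KRT8 and KRT18 were high in every library (EPCAM between 77.4 and 86.5 FPKM), as were KRT19 and, at lower levels, CDH1. Of the ovarian carcinoma markers, PAX8 (1.64 to 2.12 FPKM) and MSLN (2.95 to 3.59) were low, WT1 and MUC16 were under 1 FPKM and SOX17 was listed at 0 in every library. The blood cell marker PTPRC was at or under 0.0317 FPKM throughout, and the endothelial marker PECAM1 was at 0.74 in the first DMSO library and 10.7 in the recovered one. The part of PECAM1-positive cells in the results was not tested.

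FPKM is the number of fragments assigned to a gene, scaled by transcript length and by library size, and levels of different genes are compared here only on that scale. The table holds no counts, so total depth is unknown. For the comparison of second replicates, the columns named for DMSO and 2 h held a set of rows gathered at a fixed share of the first library (0.526 and 0.509). Rows below that share were not counted. These columns are read here as group means from which replicate 2 was recovered by subtraction. Each value called recovered rests on that reading. A fold change is a difference on the scale of log2(FPKM + 0.1), which understates the change of low genes. Cells of a culture are measured in bulk, so that less RNA per cell and fewer cells with the RNA cannot be told apart.

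Of the 95 members, 85 had a mean of at least 1 FPKM over the 6 libraries and were kept among 13287 genes. The 10 that did not were COX4I2, COX6A2, COX7A1, COX7B2 and COX8C (tissue-specific forms of complex IV subunits), ATP5L2, the pseudogenes ATP5EP2 and UQCRBP1, and the antisense genes NDUFA6-AS1 and NDUFB2-AS1. The name rule also took in genes that are not subunits. Among the 85, these were ATP5S and ATP5SL, the subunit-like UQCRHL, and the read-through genes ATP5J2-PTCD1 and NDUFC2-KCTD14, whose values were identical to those of ATP5J2 and NDUFC2. Without them, 80 genes remained: 79 subunits and CYCS. For 46 of the 95 members, the GENCODE v29 annotation lists at least 1 pseudogene by name (40 for CYCS, 12 for NDUFA5, 7 for ATP5A1 and 3 for SDHA). The treatment of reads shared with such copies is not given in the sources used here, and these levels are uncertain to that extent.

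Subunit genes were mostly expressed at high levels. Their median DMSO level was 112 FPKM, against 11.4 FPKM over all genes kept, and single genes ranged from 0.864 to 1283 FPKM. The highest was NDUFB9, an accessory subunit of complex I, with DMSO values of 1422 FPKM (first library) and 1144 FPKM (recovered library). ATP5E, the epsilon subunit of ATP synthase, followed with 1018 and 742.9. ATP5B, the catalytic beta subunit, had 539 and 428, and COX7C, a small membrane subunit of complex IV, had 524 and 630.5. At the low end stood NDUFA4L2 and COX6B2, alternative forms of complex IV subunits with DMSO levels under 3 FPKM. The DMSO libraries differed less in the members than in all genes: the median size of the difference was 0.18 on the log2 scale, against 0.39. It was 0.16 in the 82 cytosolic and 0.43 in the 79 mitochondrial ribosomal protein genes.

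After 2 h of SpiD7, the subunit genes as a group lay slightly lower. The median log2 fold change was -0.10 over the 85 members and -0.01 over all genes, and 79 of 85 members were below the DMSO mean, as were 6842 of 13287 genes. The 82 cytosolic ribosomal protein genes, which are also short and highly expressed, had a median of -0.08, with 80 of 82 lower. By limma's moderated test of 2 against 2 libraries with Benjamini-Hochberg adjustment, 0 of the 85 members passed an adjusted p of 0.05, and 0 had an unadjusted p under 0.05. Over all genes 3 passed (0.0226%) and 378 had an unadjusted p under 0.05. The smallest unadjusted p among members belonged to NDUFS3, with a log2 fold change of -0.31 (SE 0.21, adjusted p = 1 from limma), and to SDHA, with -0.22 (SE 0.15, adjusted p = 1 from limma).

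Both 2 h libraries lay below both DMSO libraries in 21 of 85 members, and for all genes this share was 8.1%. They lay above in 2 members, UQCRC2 and ATP5SL, where the share of all genes was 13.7%. These steps were small. No member differed more than 2-fold at 2 h (2.98% of all genes did), and the median size of the 2 h change was 0.10, below the difference between the DMSO libraries. Between same-numbered libraries, 65 of 85 members were lower in both pairs (76.5%, and 34.4% of all genes) and 4 higher in both. The member medians of the pairs were -0.07 and -0.12. The labels give these pairs only a shared number, and this was not tested. After median-ratio scaling the 2 higher members no longer stood above both DMSO libraries.

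At 6 h and 12 h there was 1 library each, so these comparisons have no replicate check and no test. The spread of the 2 DMSO libraries is given beside them. The member median was 0.01 at 6 h and -0.03 at 12 h, with all genes at 0.03 and -0.05. At 6 h, 28 of 85 members lay below both DMSO libraries and 24 above, where all genes gave 29.2% and 31.6%. At 12 h, 31 lay below and 22 above, and all genes gave 35.6% and 30.1%. After median-ratio scaling the 12 h balance turned round, to 24 below and 31 above, so that no direction can be given for the members as a whole. The steps were smaller than those of all genes. The median size of the 12 h change was 0.16 for members and 0.33 for all genes. Among members, 8 of 85 (9.41%) moved by more than 0.5 on the log2 scale, against 32.8% of all genes. This was not particular to the members. In 79 mitochondrial and 82 cytosolic ribosomal protein genes the median sizes were 0.16 and 0.23, with 6.33% and 0% over 0.5.

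More than 2-fold differences from DMSO were seen in 2 members, both close to the filter of 1 FPKM (means of 1.04 for NDUFA4L2 and 1.20 for COX6B2). Each passed that filter only through the libraries in which it was high, so that these folds rest in part on the values that let the genes in. At 6 h, NDUFA4L2 alone passed (8.76% of all genes did), and at 12 h NDUFA4L2 and COX6B2 did (10.2%). NDUFA4L2, an alternative form of the complex IV subunit NDUFA4 that is known to be induced in hypoxia, had 0.707 and 2.46 FPKM in DMSO, 0.241 and 1.91 after 2 h, 0.588 after 6 h and 0.344 after 12 h. The 12 h log2 fold change was -1.70, but the DMSO libraries themselves differed by 1.67. COX6B2, the testis form of COX6B1, had 0.817 and 0.912 in DMSO, 1.22 and 0.687 after 2 h, 1.47 after 6 h and 2.12 after 12 h, where its log2 fold change was 1.20. Its 2 h libraries lay on either side of the DMSO libraries, whereas 6 h and 12 h stood above both.

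The complexes and the subunits within them differed in direction at 12 h. Complex IV subunits without the alternative forms were mostly higher (median log2 fold change 0.20, n = 11). The medians of complexes II and III were lower (-0.22, n = 4, and -0.16, n = 9), and complexes I and V spread around 0 (-0.03, n = 37, and -0.09, n = 15). In complex III, 6 subunits were lower than the DMSO mean and 3 higher. After median-ratio scaling these were 5 and 4. Against the first DMSO library alone they were 5 and 4, and against the recovered one 8 and 1. The complex III median stayed below 0 in these settings (-0.11, -0.21 and -0.12). With the alternative forms, complex IV had a median of 0.15 (n = 14). Members of a complex are different genes in the same 12 h library and not replicates of the condition.

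**Figure D1:**
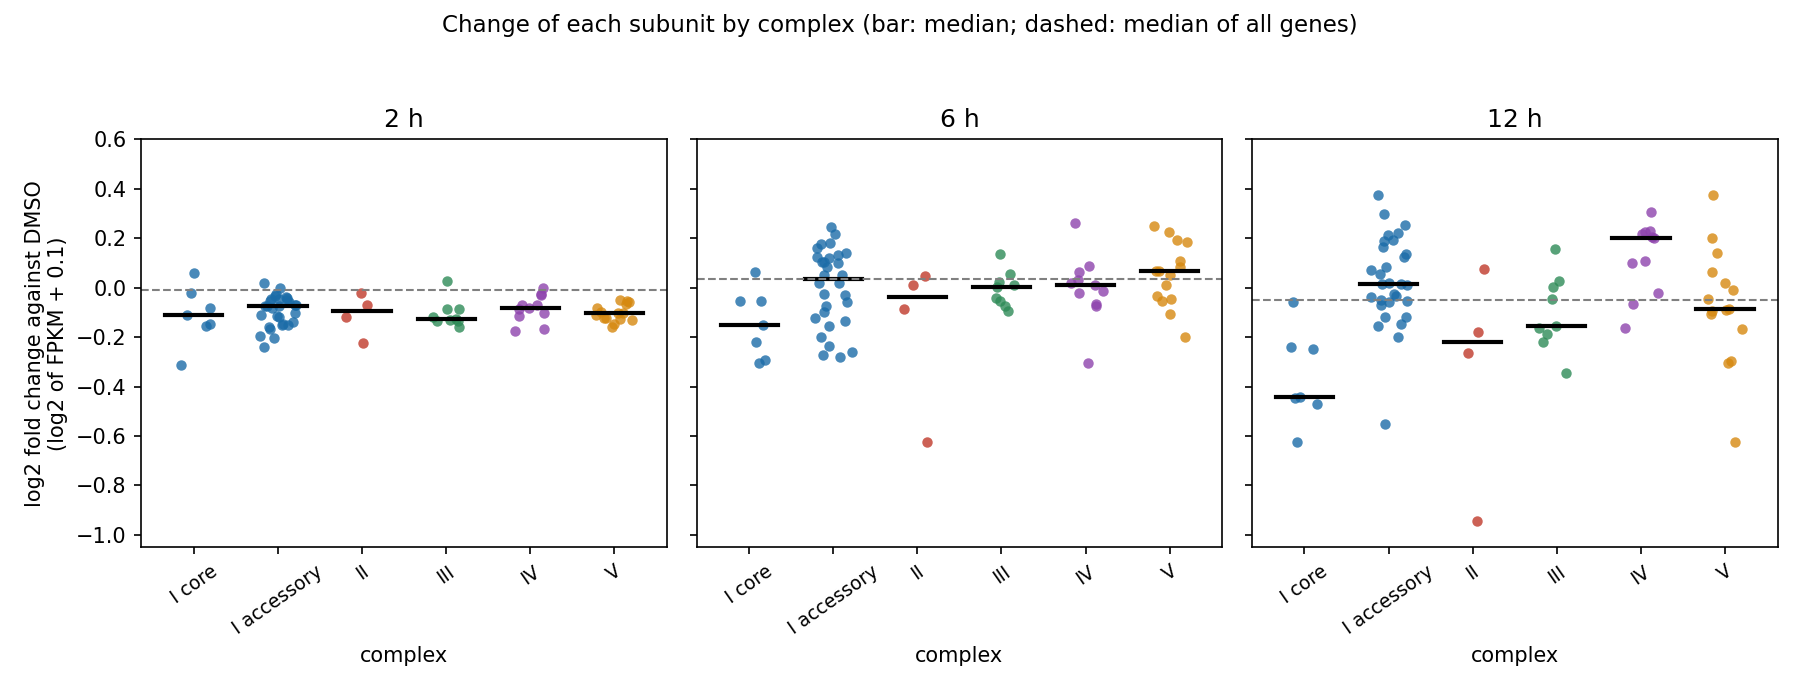
Log2 fold change against the mean of both DMSO libraries (y axis, log2 of FPKM + 0.1) for each subunit, by complex (x axis), after 2 h (mean of 2 libraries), 6 h and 12 h (1 library each); points are genes, black bars medians and the dashed line the median of all genes kept, and alternative forms of complex IV subunits and CYCS are left out. At 12 h the 7 core subunits of complex I all lie below 0 with a median of -0.44, while complex IV has a median of 0.20.

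Complex I takes electrons from NADH through flavin and a chain of iron-sulfur clusters to ubiquinone. The 7 core subunits encoded in the nucleus carry these cofactors or form the quinone-reducing module, and the accessory subunits surround them. At 12 h all 7 core subunits were lower than the DMSO mean, 6 of them below both DMSO libraries (all genes, 35.6%). Their median was -0.44, and -0.35 and -0.47 against the first and the recovered DMSO library alone. The 30 accessory subunits had a median of 0.01, with 13 lower and 17 higher. Of these, 6 were below both DMSO libraries and 8 above both (all genes, 35.6% and 30.1%). After median-ratio scaling 9 accessory subunits were lower and 21 higher, 3 below both and 13 above both, while all 7 core subunits stayed lower and 6 below both. At 6 h the medians were -0.15 and 0.03, and at 2 h -0.11 and -0.07. The division into core and accessory subunits is the usual biochemical one, made here with values known, and the difference between them was not tested.

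NDUFS1, the large iron-sulfur subunit at the entry of the chain, had 39.6 and 37.6 FPKM in DMSO, 42.7 and 38.0 after 2 h, 33.1 after 6 h and 25.01 after 12 h. The 6 h and 12 h libraries lay below both DMSO libraries, the 2 h libraries did not, and the log2 fold change at 12 h was -0.62. The gene lies on chromosome 2 of GRCh38, from 206114817 to 206159603 on the minus strand. NDUFV2, an iron-sulfur subunit of the NADH-binding module, had 316 and 329 in DMSO, 317 and 263 after 2 h, 261 after 6 h and 236 after 12 h (-0.45 at 12 h). Its partner NDUFV1, which binds NADH and flavin, had 94.1 and 107 in DMSO, 92.1 and 106 after 2 h, 96.6 after 6 h and 73.7 after 12 h (-0.44). NDUFV1 was within the DMSO range at 6 h and below both DMSO libraries at 12 h.

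Smaller differences were seen in further core subunits. NDUFS7 had 63.9 and 62.2 FPKM in DMSO, 57.4 and 56.3 after 2 h, 56.7 after 6 h and 53.1 after 12 h, with all 4 SpiD7 libraries below both DMSO libraries. NDUFS3 had 106 and 85.8 in DMSO, 83.9 and 70.2 after 2 h, 91.8 after 6 h and 80.6 after 12 h, below both DMSO libraries at 2 h and 12 h but not at 6 h. NDUFS8 had 154 and 118 in DMSO and 130 at 12 h, within the DMSO range there and at 6 h.

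Accessory subunits of complex I stood on both sides of DMSO. The lowest at 12 h was NDUFA5, a subunit of the peripheral arm, with 28.99 and 32.3 FPKM in DMSO, 31.2 and 28.1 after 2 h, 25.2 after 6 h and 20.9 after 12 h (-0.55). The highest was NDUFB9, a subunit of the distal membrane arm, with 1388 and 1055 after 2 h, 1483 after 6 h and 1655 after 12 h (0.38 against a difference of 0.31 between the DMSO libraries). The 11 NDUFB subunits, which lie in the membrane arm, had a median of 0.08 at 12 h, with 7 higher and 4 lower, of which NDUFB1 and NDUFB3 came to lie above 0 after median-ratio scaling (0.02 and 0.01). NDUFB11 had 54.9 and 62.6 in DMSO, 50.9 and 57.7 after 2 h, 63.7 after 6 h and 72.1 after 12 h (0.30). NDUFA6 had 49.8 and 43.0 in DMSO, 47.9 and 43.1 after 2 h, 52.3 after 6 h and 55.2 after 12 h (0.26). In both, 6 h and 12 h lay above both DMSO libraries.

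Complex II oxidizes succinate and is at once an enzyme of the TCA cycle. It has 4 subunits, all nuclear-encoded. SDHA, the flavoprotein that holds the active site, showed the largest 12 h change among subunits with a DMSO level over 3 FPKM. It had 80.1 and 82.7 FPKM in DMSO (first and recovered library), 69.6 and 69.8 after 2 h, 52.8 after 6 h and 42.3 after 12 h. All 4 SpiD7 libraries lay below both DMSO libraries and each later time was lower than the one before. The log2 fold changes were -0.22, -0.62 and -0.94, and the DMSO libraries differed by 0.05. At 12 h SDHA was at 52.0% of its DMSO mean. The gene lies on chromosome 5, from 218241 to 256700 on the plus strand.

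The other complex II subunits did not share this course. SDHB, the iron-sulfur subunit, had 53.7 and 51.6 in DMSO, 54.5 and 49.5 after 2 h, 54.4 after 6 h and 55.5 after 12 h, slightly above both DMSO libraries at the end (0.07). The membrane anchors SDHC and SDHD had log2 fold changes of -0.18 and -0.26 at 12 h. SDHC had 36.5 and 38.9 in DMSO and 33.3 at 12 h, and SDHD had 75.6 and 80.8 in DMSO and 65.1 at 12 h. Both lay below both DMSO libraries at 12 h, with their 2 h libraries within or across the DMSO range.

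**Figure D2:**
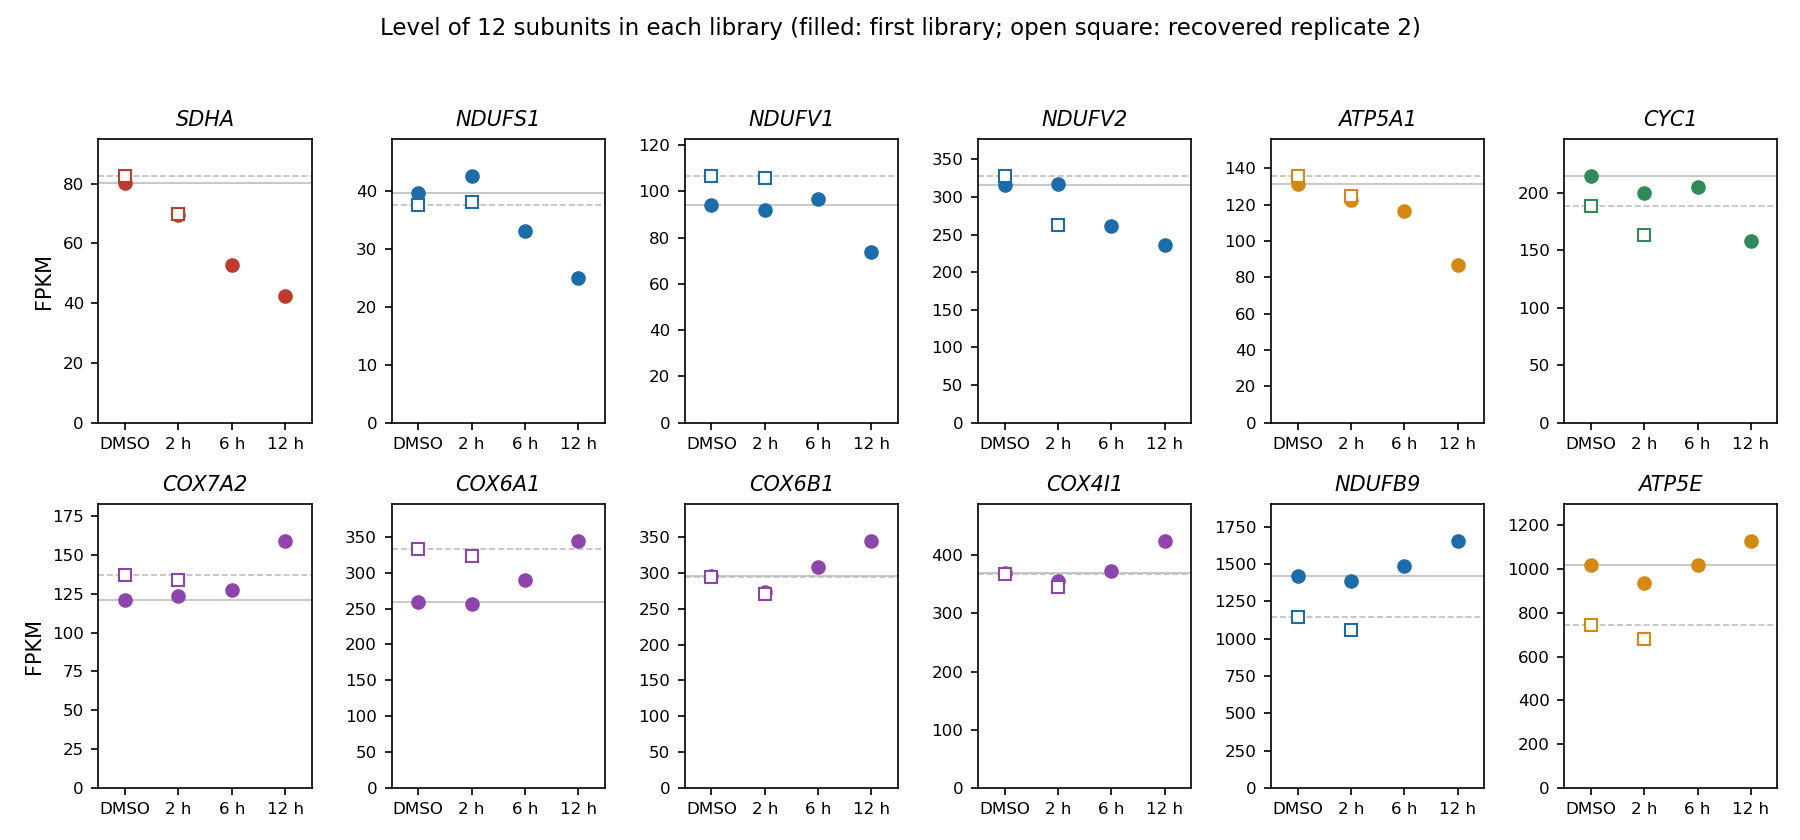
FPKM (y axis, from 0) of 12 subunits in each library, in panels by gene, for DMSO and 2, 6 and 12 h of SpiD7 (x axis); filled circles are the first or single libraries, open squares the recovered replicates, and the solid and dashed lines mark the first and recovered DMSO libraries. SDHA descends from 80.1 and 82.7 to 42.3, and the 6 genes of the upper row lie below both DMSO lines at 12 h while the 6 of the lower row lie above.

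Complex III moves electrons from ubiquinol to cytochrome c. Its 2 nuclear-encoded redox subunits were lower at 12 h. CYC1, cytochrome c1, had 215 and 189 FPKM in DMSO, 199 and 163 after 2 h, 205 after 6 h and 158 after 12 h (-0.35). UQCRFS1, the Rieske iron-sulfur protein, had 143 and 135 in DMSO, 136 and 118 after 2 h, 135 after 6 h and 122 after 12 h (-0.19). For both, 12 h lay below both DMSO libraries and the DMSO libraries differed by 0.19 and 0.08. UQCRH, the hinge protein and the subunit with the highest level, was within the DMSO range at 12 h (488 and 581 in DMSO, 543 at 12 h). UQCR11 was the highest in change (64.4 and 57.8 in DMSO, 68.0 at 12 h, 0.16). CYCS, the mobile carrier cytochrome c that is also released in apoptosis, had 116 and 110 in DMSO, 122 and 101 after 2 h, 125 after 6 h and 90.7 after 12 h. It was above both DMSO libraries at 6 h and below both at 12 h (0.15 and -0.32).

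Complex IV, cytochrome c oxidase, has its catalytic subunits encoded by mitochondrial DNA, and the nuclear subunits surround them. NDUFA4 is counted here because it is a subunit of complex IV despite its name. Of the 11 subunits without alternative forms, 8 were higher than the DMSO mean at 12 h. Above both DMSO libraries, where 30.1% of all genes lay, were 6 of them (COX7A2, COX6A1, COX6B1, NDUFA4, COX4I1 and COX5B). Their log2 fold changes lay between 0.20 and 0.30. The median of the 11 depended on the DMSO library: it was 0.20 against the first and 0.06 against the recovered one.

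COX7A2 had 121 and 137 FPKM in DMSO, 123 and 134 after 2 h, 128 after 6 h and 159 after 12 h (0.30). COX6B1, which contacts cytochrome c, had 296 and 294 in DMSO, 274 and 271 after 2 h, 308 after 6 h and 345 after 12 h (0.22). COX4I1, a regulatory subunit, had 369 and 367 in DMSO, 356 and 346 after 2 h, 373 after 6 h and 425 after 12 h (0.21). In COX6B1 and COX4I1 the DMSO libraries were nearly equal, both 2 h libraries lay below them, and 6 h and 12 h lay above. COX6A1 had 260 and 333 in DMSO and 344 at 12 h (0.23), a step smaller than the difference between its DMSO libraries (0.36). COX7C (485 and 541 after 2 h, 548 after 6 h and 514 after 12 h) was below both DMSO libraries at 12 h, at -0.16, but after median-ratio scaling 0 of the 11 subunits were below both. COX8A had 454 and 459 in DMSO and 449.7 at 12 h (-0.02), a difference that turned to 0.03 after median-ratio scaling. COX7B, the main form beside COX7B2, had 311 and 361 in DMSO, 297 and 329 after 2 h, 318 after 6 h and 359 after 12 h (0.10). It was within the DMSO range at 6 h and 12 h, while its first 2 h library lay below both DMSO libraries and the recovered one between them. COX7A2L, a factor related to COX7A2 that joins complexes into supercomplexes, was within the DMSO range at 12 h (100.4 and 112 in DMSO, 102 at 12 h).

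Complex V consists of the F1 head, which makes ATP, and the membrane part with a ring of c subunits. ATP5A1, the alpha subunit of F1, had 131 and 136 FPKM in DMSO, 123 and 125 after 2 h, 116 after 6 h and 86.7 after 12 h, with all 4 SpiD7 libraries below both DMSO libraries. The 12 h log2 fold change was -0.62, and the DMSO libraries differed by 0.05. The gene lies on chromosome 18, from 46080248 to 46104334 on the minus strand. ATP5B, its catalytic partner in the same head, had 516 and 416 after 2 h, 549 after 6 h and 451 after 12 h, within the DMSO range at 12 h (-0.09). ATP5E had 934 and 681 after 2 h, 1016 after 6 h and 1128 after 12 h, above both DMSO libraries (0.38), although those differed by 0.45. The gamma subunit ATP5C1 was at -0.09 and the delta subunit ATP5D at -0.05 at 12 h. ATP5D was not on 1 side of DMSO in a stable way, since its value became 0.002 after median-ratio scaling.

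ATP5L, the g subunit of the membrane part and the main form beside ATP5L2, had 79.7 and 73.5 FPKM in DMSO, 77.6 and 65.5 after 2 h, 87.1 after 6 h and 84.4 after 12 h (0.14). It stood above both DMSO libraries at 6 h and 12 h. Over the 15 subunits of complex V, 6 were below and 3 above both DMSO libraries at 12 h (all genes, 35.6% and 30.1%). After median-ratio scaling these were 4 and 5.

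ATP5G1, ATP5G2 and ATP5G3 encode the same c subunit with different import sequences. At 12 h their log2 fold changes were -0.30, -0.09 and -0.17. ATP5G1 had 169 and 155 FPKM in DMSO, 167 and 132 after 2 h, 169.6 after 6 h and 131 after 12 h, below both DMSO libraries. ATP5G2 had 174 and 197 in DMSO and 174 at 12 h, below the first DMSO library by less than 0.01 on the log2 scale. ATP5G3 had 118 and 90.4 in DMSO and 91.9 at 12 h, within the DMSO range. The median of complex V was -0.09, and 0.01 against the recovered DMSO library alone.

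All 4 SpiD7 libraries lay below both DMSO libraries in 4 members, SDHA, ATP5A1, NDUFS7 and UQCR10 (all genes, 5.04%), and above both in 1, ATP5SL (8.93%). ATP5SL, an assembly protein named for its likeness to ATP5S, had 40.1 and 39.7 FPKM in DMSO, 41.2 and 42.0 after 2 h, 43.3 after 6 h and 44.8 after 12 h. Among the 77 subunits and CYCS without alternative forms, the size of the 12 h change exceeded the difference between the DMSO libraries in 35, of which 21 were lower and 14 higher. In the other 42 it was smaller. Over all genes it exceeded that difference in 5844 of 13287, a share close to that of the subunits.

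**Figure D3:**
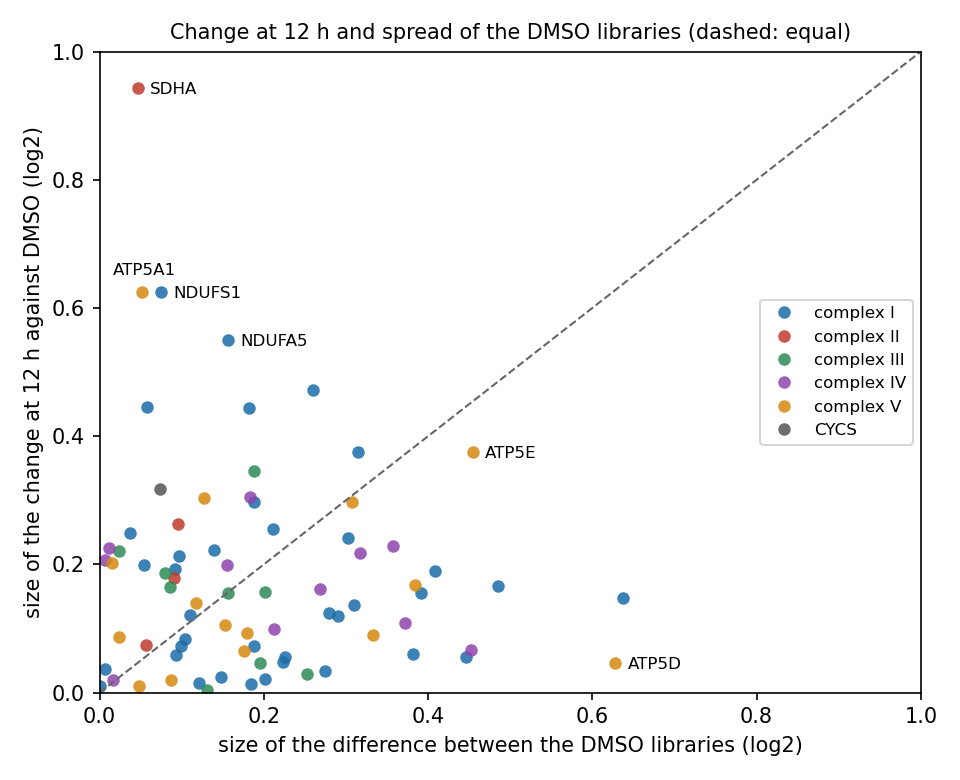
Size of the log2 change at 12 h against the DMSO mean (y axis) and size of the log2 difference between the 2 DMSO libraries (x axis) for 77 subunits and CYCS, coloured by complex; the dashed line marks equal sizes. SDHA (0.94 against 0.05), ATP5A1 and NDUFS1 stand far above the line, whereas ATP5E and ATP5D lie below it, as do 42 of the 77 genes.

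Longer subunits tended to be lower at 12 h. Across the 80 subunits and CYCS, Spearman's rho between the 12 h log2 fold change and coding length (GENCODE v29) was -0.42, and across the 11702 genes with a coding length it was -0.18. These are descriptions across genes of shared libraries, which are not independent. At 2 h rho was 0.10 and at 6 h -0.01 for the subunits. For the difference between the DMSO libraries (recovered minus first), without SpiD7, rho was -0.26 over the same 80 genes. Over all genes it was -0.007. Of the 14 subunits with coding sequences over 800 nucleotides, 1 (SDHB) was above 0 at 12 h, and their median was -0.21, against -0.10 for the 9020 genes of that class. For the 39 of up to 400 nucleotides the median was 0.01, with 23 above 0, and the 636 genes of that class had 0.06. Within complex V rho at 12 h was -0.64 (n = 15) and within complex I -0.35 (n = 37), but within the 11 complex IV subunits it was 0.60. For the difference between the DMSO libraries it was 0.14 in complex V, -0.20 in complex I and -0.51 in complex IV. The core subunits of complex I have a median coding length of 792 nucleotides and the accessory ones of 385.5, so that role and length cannot be told apart there. Length stands in the denominator of FPKM, and its part in these values was not tested.

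**Figure D4:**
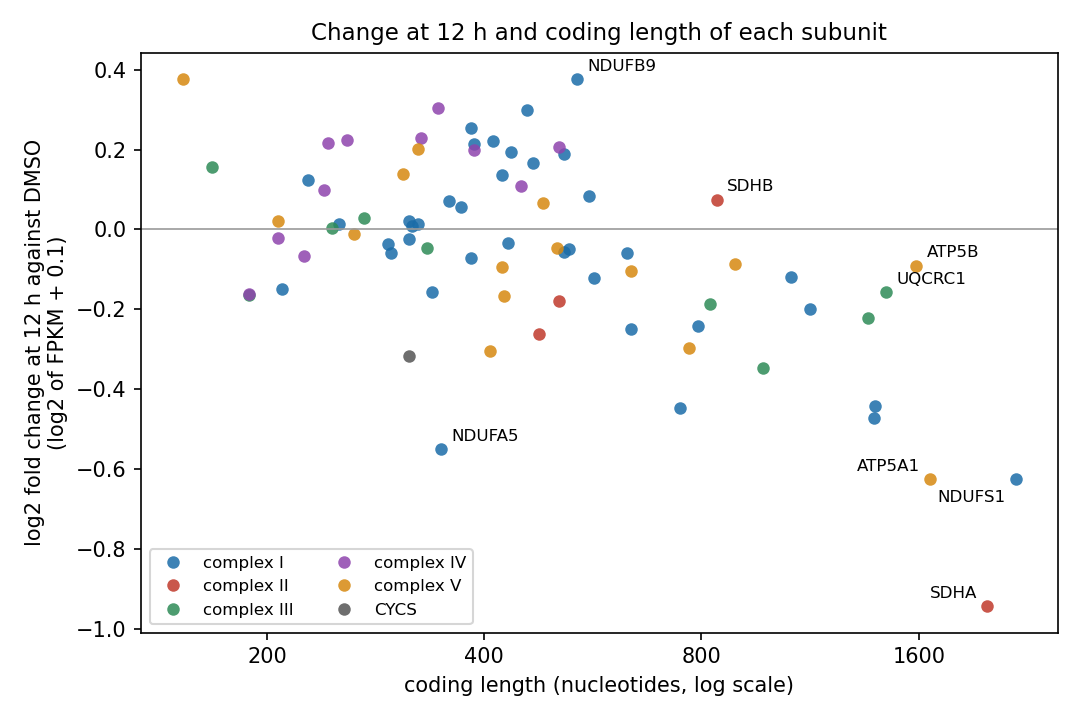
Log2 fold change at 12 h against the DMSO mean (y axis, log2 of FPKM + 0.1) and coding length in nucleotides (x axis, log scale) for 77 subunits and CYCS, coloured by complex. Of the genes over 800 nucleotides only SDHB lies above 0, and SDHA, NDUFS1 and ATP5A1 are the lowest of all.

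Many promoters of these genes carry short motifs of NRF1, of GABP (an ETS family factor) and of YY1, transcription factors known to bind promoters of respiratory chain genes. In the RefSeq promoter table (GRCh38.p14, from 250 bases before to 50 after the annotated gene start), 67 of the 80 genes were found. The letters searched on both strands were GCATGCGC for NRF1, CCGGAAGT for GABP and AAGATGGC for YY1, and a gene counted once for a motif, also where a motif and its reverse complement overlapped. NRF1 letters were present in 15 of 67 genes (22.4%, against 3.68% of 27305 genes of the table), GABP letters in 11 (16.4%, against 4.95%) and YY1 letters in 12 (17.9%, against 3.52%). At least 1 motif was found in 31 genes and all 3 in 1, ATP5J. A match of 8 letters is a description and does not show a bound site.

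As examples, the lowest and the highest core or accessory subunit at 12 h with each motif are given. They were chosen by their 12 h values, so that they do not bear on how motif and direction are related. Shown are 30 bases on the strand of the gene, with the motif or its reverse complement in capitals.
NDUFA5, NRF1 letters, chr7:123557958-123557987 (-), log2 fold change at 12 h -0.55: gtatgcccatcGCGCATGCgtcaatttttc
NDUFA6, NRF1 letters, chr22:42090920-42090949 (-), 0.26: tctgtagatgaGCATGCGCagcacccaccg
NDUFS1, GABP letters, chr2:206159584-206159613 (-), -0.62: aggctggggccACTTCCGGcggaactgcgg
ATP5J, GABP letters, chr21:25734894-25734923 (-), 0.20: cggagccagggCCGGAAGTagagcggaggt
ATP5F1, YY1 letters, chr1:111449451-111449480 (+), -0.30: acttgtgagcgGCCATCTTggtcctgccct
NDUFA6, YY1 letters, chr22:42090729-42090758 (-), 0.26: gatgctttggcAAGATGGCggggagcggcg

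Distances are counted from the gene start of the RefSeq promoter table. The motifs begin 158 bases before it in NDUFA5 and in NDUFS1, and 166 before it for the NRF1 letters of NDUFA6. They begin 8 before it in ATP5J and 2 before it in ATP5F1, and the YY1 letters of NDUFA6 begin at base 26 after it. The gene positions given above are those of GENCODE v29, whose starts differ. By these, the printed sites lie inside the genes or, in NDUFS1, across the gene start. Of the 26 genes with a promoter in the table that were below both DMSO libraries at 12 h, 6 had NRF1 letters, 4 GABP letters and 5 YY1 letters. Of the 18 above both, 6, 3 and 4 did. The median 12 h log2 fold change was -0.03 in the 31 genes with a motif and -0.01 in the 36 without.

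The nuclear regulators themselves were mixed in direction at 12 h and lower in level than most subunits. NRF1 had 5.99 and 4.602 FPKM in DMSO, 6.70 and 5.47 after 2 h, 5.61 after 6 h and 3.33 after 12 h (-0.64, below both). GABPA, the DNA-binding subunit of GABP, had 8.80 and 9.06 in DMSO, 10.5 and 9.68 after 2 h, 15.1 after 6 h and 11.7 after 12 h (0.38), above both DMSO libraries in all 4 SpiD7 libraries. Its partner GABPB1 was at 0.56 and YY1 at 0.26 at 12 h, both above both DMSO libraries. TFB2M, which opens the mitochondrial DNA promoter for transcription, had 16.95 and 14.1 in DMSO, 21.4 and 16.8 after 2 h, 28.0 after 6 h and 29.8 after 12 h (0.94, the highest of the list). TFAM, the packaging and transcription factor of mitochondrial DNA, was at -0.18 within the DMSO range, TFB1M at -0.31 and the mitochondrial RNA polymerase POLRMT at -0.21, the last 2 below both. The nuclear receptor ESRRA (31.9 and 29.1 in DMSO, 26.5 at 12 h) was below both at every time. Of the coactivators, PPRC1 was at 0.33 and PPARGC1B at -0.23, and PPARGC1A did not reach a mean of 1 FPKM. At 12 h, 5 of the 11 kept regulators were below both DMSO libraries and 5 above both (all genes, 35.6% and 30.1%). None was more than 2-fold from DMSO (10.2% of all genes were).

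Assembly factors build the complexes without staying in them. All 52 listed were kept, and at 12 h 21 were below and 10 above both DMSO libraries (all genes, 35.6% and 30.1%). Their median was -0.07, and 0.06 and -0.20 against the recovered and the first DMSO library alone. After median-ratio scaling 19 were below and 14 above both. COX19, which helps deliver copper to complex IV, had 5.80 and 4.28 FPKM in DMSO, 7.15 and 6.11 after 2 h, 8.18 after 6 h and 11.8 after 12 h (1.23), and was the only one more than 2-fold higher. LYRM7, which handles the Rieske protein of complex III, had 9.26 and 6.27 in DMSO, 7.65 and 5.63 after 2 h, 5.53 after 6 h and 3.12 after 12 h (-1.26), the only one more than 2-fold lower. NUBPL, an iron-sulfur factor for complex I, was below both DMSO libraries at each time (15.3 and 11.9 in DMSO, 8.75 and 10.2 after 2 h, 9.90 after 6 h and 7.91 after 12 h).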

How the data were processed

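RNA of OVCAR5 cells (TruSeq V2 libraries, single reads) was measured in 6 libraries. By the methods and the submitters' processing notes, reads were trimmed with Trim Galore, aligned with TopHat 2.0.8 and quantified with Cufflinks and Cuffdiff 2.1.1. The notes name GRCm38 and hg38, and the loci in the table are human ones. In the deposited table the authors give an FPKM value per gene for each side of 4 Cuffdiff comparisons, each scaled on its own, and their fold changes and p-values, which were not used. There were 0 value columns that matched no sample or group. Depth is unknown, so that no counting error can be given.

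The columns of the second comparison were read as group means after the data were examined. This rests on the values and is not described in the paper's text: 0 of the 18195 rows detected in the first DMSO library were undetected in the mean, and 811 rows (967 at 2 h) lay at the fixed share. The share was itself taken from these rows, as the median of their ratios. The first library was subtracted with that weight to recover replicate 2, and remainders under 0.2% of the mean, negative ones included, were set to 0. The 6 h and 12 h libraries were rescaled to the first comparison through their shared DMSO library (factors 0.972 and 0.994).

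The 33085 rows were summed by symbol, and symbols averaging 1 FPKM or more were kept. limma 3.58.1 in R 4.3.3 tested 2 h against DMSO over all genes kept, after a test on simulated data. Tables were made with Python 3.11.15, pandas 2.3.3 and numpy 2.4.6. Members and gene lists were chosen with earlier results of these data known. Named by rule were, in each complex, the 2 members highest in mean FPKM and the highest and lowest in 12 h change, with CYCS, CYC1, the ATP5G genes, alternative forms and their main partners, the ends of each other list and all nuclear regulators. Other members, among them the core subunits of complex I, those with all SpiD7 libraries on the same side of DMSO and those with printed motifs, were named after their values were seen. No sequence of chromosome 8 is shown. Not every member is reported by name here. The 13 subunits encoded by mitochondrial DNA were not analysed here.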

Additional observations from a re-analysis of the deposited data

Results flagged for a closer look

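In 5 members, both 2 h libraries lay on one side of both DMSO libraries and the 12 h library on the other, which was untested because 12 h has 1 library. Over all genes this was so for 4.34%, and for 5.88% of the members. The log2 fold change at 12 h minus that at 2 h was 0.34 for COX6B1 (-0.11 at 2 h and 0.22 at 12 h), 0.28 for COX4I1 (-0.07 and 0.21), 0.26 for ATP5J (-0.06 and 0.20) and 0.16 for NDUFS5 (-0.15 and 0.01). UQCRC2, a large matrix subunit of complex III, went the other way, by -0.25 (0.03 and -0.22). In all 5 the DMSO libraries were close, with differences of 0.0006 (NDUFS5) to 0.02 (UQCRC2). The difference between the times was not tested.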

How the results depend on the processing

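Of 91 recalculated values, 89 stayed within the DMSO spread (medians) or within 1.5 times (counts). Some of them could move little or not at all. The replicate block leaves the 2 h median as it is, and taking only the highest row of a symbol affects few members, since 3 subunits had several rows. The number of members with both 2 h libraries above both DMSO libraries went from 2 to 0 after median-ratio scaling and to 1 with only subunits and CYCS, an alternative chosen after seeing the data. Without DMSO replicate 1 or 2, or a 2 h replicate, the member median at 2 h lay between -0.10 and -0.07. With the deposited group means of DMSO and 2 h, used without recovering replicate 2, it was -0.15. Medians near 0 changed sign without leaving that spread: after median-ratio scaling the member median was -0.03 at 6 h and 0.01 at 12 h, and complex I was at 0.01 at 12 h. The same scaling turned the 12 h count of members from 31 below and 22 above both DMSO libraries to 24 and 31. Without DMSO replicate 1 or 2 the 6 h median was -0.01 or -0.002, and complex V was 0.01 without DMSO replicate 1. Median-ratio scaling shifted 12 h against DMSO by -0.05. With NDUFA4 and NDUFA4L2 counted in complex I instead, the complex IV median stayed positive. In every limma setting, 0 members were called. With the replicate block, limma called 0 genes and 0 members, and 1 member, NDUFS3, had an unadjusted p under 0.05 (adjusted p = 0.338 from limma). The member median at 2 h was again -0.10, which this balanced block could not change. The deviations of same-numbered libraries had a Pearson correlation of 0.369 over all genes and 0.835 over members. By rank, Spearman's rho between the replicate differences of 2 h and of DMSO was 0.84 over all genes. It was 0.86 over the 80 subunits and CYCS, so this likeness was not particular to the members. The labels give such libraries only a shared number. The recovered libraries and 1 library each at 6 h and 12 h limit every statement above.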

Other observations

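The TCA cycle, which supplies NADH and succinate to complexes I and II, lay lower than the subunits at 12 h. Of 14 enzymes, 13 were below the DMSO mean, 10 of them below both DMSO libraries and 1, IDH3B, above both (35.6% and 30.1% of all genes). The median log2 fold change was -0.33, and -0.29 and -0.36 against the recovered and the first DMSO library alone. DLD, a subunit shared by several mitochondrial dehydrogenase complexes, was the lowest, with 28.8 and 31.7 FPKM in DMSO, 29.2 and 29.3 after 2 h, 24.3 after 6 h and 18.3 after 12 h (-0.72). OGDH (57.7 and 52.8 in DMSO, 33.8 at 12 h, -0.70) was close to it. IDH3B had 108 and 96.4 in DMSO and 111 at 12 h (0.12). FH and IDH3A were within the DMSO range.

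Mitochondrial chaperones stood higher. HSPD1 had 966 and 532 FPKM in DMSO, 1228 and 913 after 2 h, 1839 after 6 h and 2055 after 12 h (1.52), and HSPE1 had 665 and 380.5 in DMSO and 1319 at 12 h (1.39). Of the 9 kept genes of the mitochondrial stress list, 6 were above both DMSO libraries at 12 h (all genes, 30.1%). These were HSPD1, HSPE1, HSPA9, CLPP, DDIT3 and TRIB3. The paper counts DDIT3 (CHOP) with the unfolded protein response, so the list is not particular to mitochondria. A mitochondrial stress response was not tested. The highest of the list was TRIB3 (12.9 and 11.1 in DMSO, 82.4 at 12 h, 2.77) and LONP1 was the lowest (-0.20). Of 16 glycolysis genes, 9 were below and 3 above both DMSO libraries at 12 h (all genes, 35.6% and 30.1%). Their median was -0.15, from PFKL at -0.77 to ALDOC at 0.25, the latter within the DMSO range. LDHB was listed at 0 in every library. Of 82 cytosolic ribosomal protein genes 73 were above both DMSO libraries at 12 h (median 0.23), and of 79 mitochondrial ribosomal protein genes 20 were above and 12 below. The median of the latter list was 0.03, but -0.18 against the first and 0.21 against the recovered DMSO library alone, so that its sign rests on which library is used. Among cell type markers KRT19 was highest at 12 h (0.53) and PECAM1 lowest (-1.53, within its DMSO range).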
